A study of Mus musculus with 18 samples.

Results

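Members of the kinesin (Kif), centrosomal protein (Cep) and augmin (Haus) gene families were taken from the count table as the protein-coding genes whose symbol is Kif, Cep or Haus followed directly by a digit and whose mean level over the 18 libraries was at least 0.5 CPM. The rule gave 74 members of 83 such genes and of 48794 rows in all: 31 of 39 Kif genes, 35 of 36 Cep genes and all 8 Haus genes. CPM, the usual depth-scaled unit, is a gene's count divided by its library size; the size was scaled by TMM, which balances libraries whose total is taken up by few genes. The 9 family genes under the level were Kif6, Kif12, Kif17, Kif21a, Kif26a, Kif27, Kif28, Cep126 and Kif2b, which had no count in any library. Just inside the level stood Kif26b at 0.66 CPM, and just outside it Kif21a at 0.44 CPM. Kif1bp met the rule by its symbol but encodes a kinesin-binding protein and not a motor.

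Kinesins are motor proteins that walk on microtubules or take them apart at their ends; some carry vesicles and organelles, and others build the spindle, move chromosomes and divide the cell. Cep proteins form and surround the centriole, the core of the centrosome, and some of them attach it to the membrane as the base of a cilium. Augmin, a complex of the Haus proteins, docks on spindle microtubules and recruits the gamma-tubulin complex so that new microtubules branch from them. In macrophages, motors of the transport class move lysosomes, phagosomes and cytokine vesicles.

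The cells were bone marrow-derived macrophages from male C57BL/6 mice, differentiated for 7 days with 50 ng/ml of recombinant human M-CSF, and their poly(A) RNA was sequenced. All 3 groups then had 24 h of M-CSF at 10 ng/ml: Control with nothing added, IL4_IL13 with IL-4 and IL-13 at 10 ng/ml each, and IL4_IL13_TNFa with both and TNFa at 10 ng/ml. Each group had 6 libraries, numbered 1 to 6, and no group had TNFa alone. The labels give no animal, culture or age for a library, so p-values reflect only how far these libraries spread, a spread that may be technical. In bulk RNA, fewer cells of a type and less RNA per cell cannot be told apart.

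The libraries held 14793404 to 20056125 counts, and all 10 macrophage marker genes passed the filter on low counts, with a summed level of 16363 to 28697 CPM in Control, 10287 to 12776 in IL4_IL13 and 9373 to 10354 in IL4_IL13_TNFa. Stromal markers summed to 21.9 to 695, 64.4 to 605 and 69.0 to 404 CPM in the same order, and 0 of 7 tested passed the threshold in any comparison. Markers of T and NK cells, B cells, mast cells, erythroid cells and neutrophils each summed to at most 3.20 CPM in any library. Dendritic cell markers, mostly Zbtb46, summed to 1.26 to 3.64, 2.77 to 5.68 and 34.9 to 37.9 CPM. Of the 2 tested, 1 was higher and 1 lower in every comparison. Endothelial markers, mostly Vwf, summed to 32.0 to 59.4, 163 to 329 and 94.5 to 220 CPM. Of 4 tested, 2 were higher and 1 lower with IL-4 and IL-13, and 0 and 3 with TNFa added. Against Control, IL4_IL13_TNFa had 2 of them higher and 2 lower. The part of these markers in the results was not tested. Control library 1 stood apart. It exceeded the other 5 Control libraries for all 11 mitotic kinesins, by a median of 1.00 on the log2 scale against their mean, and for all 8 augmin subunits, by 0.70. It held the lowest summed stromal level and the lowest summed macrophage level among the Control libraries; their part in the results was not tested. Some results that rest on this library are given with and without it, and others only with it.

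All 74 members passed the filter on low counts and entered edgeR's quasi-likelihood test, fitted on 13177 genes with Benjamini-Hochberg adjustment; a gene was called at an adjusted p under 0.05. With IL-4 and IL-13, 19 members were higher than in Control, 18 were lower and 37 did not pass, against 59.0% of all tested genes called, 29.3% higher and 29.7% lower. Without Control library 1, 30 members were higher and 20 lower. Of all 13344 genes tested in that fit, 4741 were higher and 4340 lower. The median log2 change was 0.02 over the members and -0.002 over all tested genes. With TNFa added to IL-4 and IL-13, 10 members were higher than in IL4_IL13, 47 were lower and 17 did not pass, against 59.6% of all tested genes called, 30.3% higher and 29.3% lower. There the median was -0.53 over the members and 0.003 over all tested genes, and 27 members were at least 2-fold lower. How many of all tested genes were at least 2-fold lower was not counted. IL4_IL13_TNFa against Control, which shares its groups with both comparisons, had 10 members higher and 52 lower, against 73.8% of all tested genes called, 36.4% higher and 37.3% lower. Kif1a and Cep295nl had a mean under 0.5 CPM in at least 1 group and met the rule through their high groups, so their differences are in part what chose them.

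**Figure D1:**
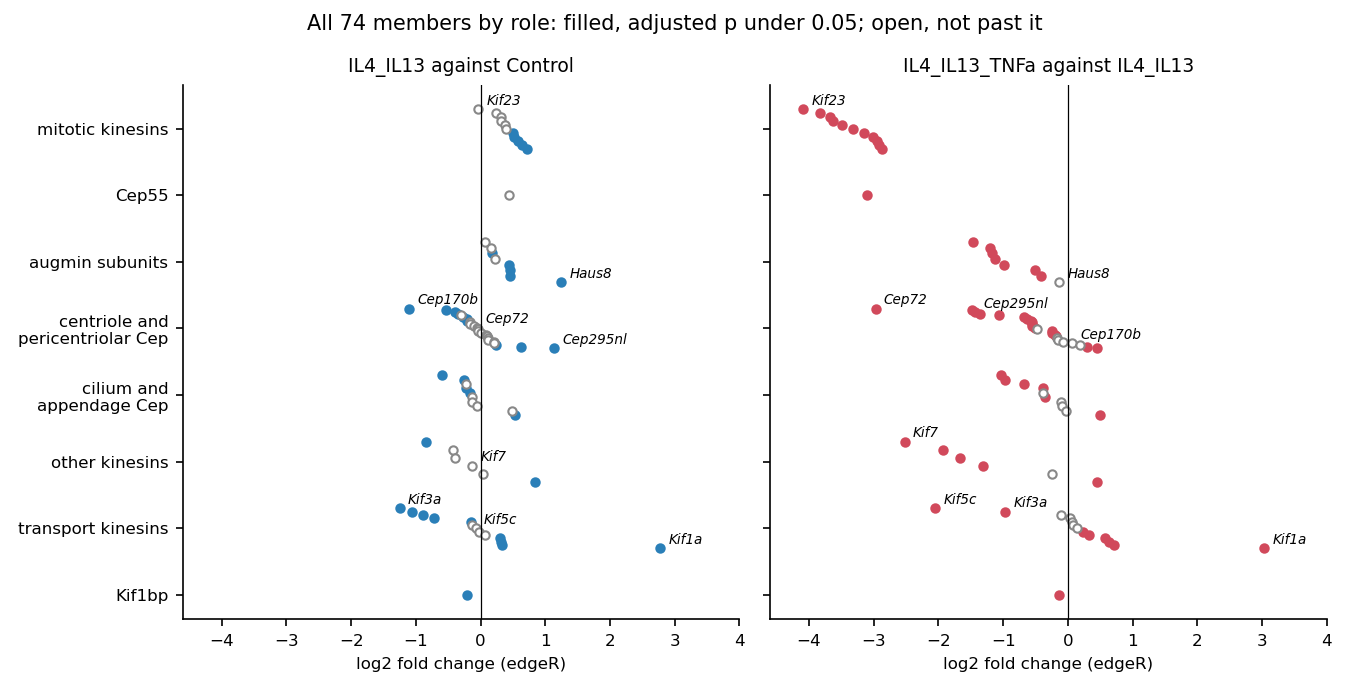
Log2 fold changes of all 74 members by role (horizontal axis, edgeR), for IL4_IL13 against Control on the left and IL4_IL13_TNFa against IL4_IL13 on the right. Each point is a gene; filled points had an adjusted p under 0.05 and open points did not. All 11 mitotic kinesins lie between -4.09 and -2.87 on the right, while the transport kinesins lie on both sides of 0.

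The 11 kinesins listed here as mitotic, a list drawn up with earlier results of these data known, moved together. Kif2a, a relative of Kif2c placed among the other kinesins, rose with TNFa. All 11 listed fell when TNFa was added, where 29.3% of all tested genes were called lower. Their log2 changes ran from -4.09 to -2.87, with a median of -3.32. The IL4_IL13 and IL4_IL13_TNFa libraries did not overlap for any of the 11. It follows from this that each was lower in the IL4_IL13_TNFa library of all 6 pairs with the same number. The shares of all tested genes without overlap, or lower in all 6 pairs, were not counted. The summed level of the 11 ran from 393 to 1043 CPM in Control, 629 to 1039 in IL4_IL13 and 65.4 to 112 in IL4_IL13_TNFa.

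Kif23 encodes the motor subunit of centralspindlin, which bundles the midzone microtubules where the cell divides. Its lowest, median and highest CPM were 69.8, 94.6 and 153 in Control, 77.7, 95.8 and 122 in IL4_IL13, and 4.27, 5.27 and 9.24 in IL4_IL13_TNFa. The first 2 groups overlapped, and every IL4_IL13_TNFa library lay below all the others. With TNFa added its mean went from 97.4 ± 15.5 to 5.72 ± 1.89 CPM (SD, n = 6), a log2 change of -4.09 ± 0.21 (SE) or 17.0-fold lower (edgeR adjusted p = 7.99e-12). IL-4 and IL-13 alone left a log2 difference of -0.04 ± 0.17 (edgeR adjusted p = 0.86).

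Kif2c, also called MCAK, removes tubulin at microtubule ends and frees wrongly attached chromosomes. Its CPM was 25.0, 35.1 and 74.4 (lowest, median, highest) in Control, 38.6, 48.4 and 66.2 in IL4_IL13 and 2.42, 3.35 and 5.41 in IL4_IL13_TNFa. It fell by 3.82 ± 0.26 with TNFa (edgeR adjusted p = 3.31e-10). Kif11, also called Eg5, pushes the spindle poles apart. Its CPM was 69.5, 102 and 201 in Control, 123, 162 and 210 in IL4_IL13 and 10.2, 11.8 and 18.1 in IL4_IL13_TNFa. The log2 change with TNFa was -3.62 ± 0.24 (edgeR adjusted p = 2.47e-10), with no overlap of the groups. Kif14, a motor of cytokinesis, fell by 3.67 ± 0.25 from 41.3 ± 6.96 to 3.23 ± 1.20 CPM.

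The smallest falls of the group were still more than 7-fold. Kif18a, which limits chromosome oscillations on the metaphase plate, had the lowest level per length of the 11 (0.87 CPM per kb of annotated exon over all libraries) and fell by 2.87 ± 0.25, or 7.33-fold. Kif20a, which carries regulators to the midzone, had the highest (17.1 CPM per kb) and fell by 3.01 ± 0.19. Kif4, a chromosome-bound motor, ran at 25.7, 36.3 and 74.8 CPM in Control, 48.3, 66.8 and 86.7 in IL4_IL13 and 7.33, 8.37 and 11.8 in IL4_IL13_TNFa. Its IL4_IL13_TNFa libraries lay below all others, with a log2 change of -2.95 ± 0.23 against IL4_IL13. Kif15, Kif18b, Kif20b and Kif22, which serve spindle length, chromosome alignment, midzone formation and chromosome arm movement, fell by 3.32, 3.48, 2.91 and 3.16. Of the exon bases of Kif20a 29.3% lie under an exon of a gene on the other strand, and of those of Kif4 15.1%; whether the counting used strand is not given in the sources used here.

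Cep55, which recruits the membrane-cutting machinery to the midbody at the end of division, fell by a similar amount. Its CPM was 22.2, 29.3 and 60.6 in Control, 37.0, 45.1 and 59.8 in IL4_IL13 and 4.13, 4.65 and 7.07 in IL4_IL13_TNFa. The log2 change with TNFa was -3.11 ± 0.23 (edgeR adjusted p = 1.27e-09), again without overlap and therefore in 6 of 6 pairs.

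**Figure D2:**
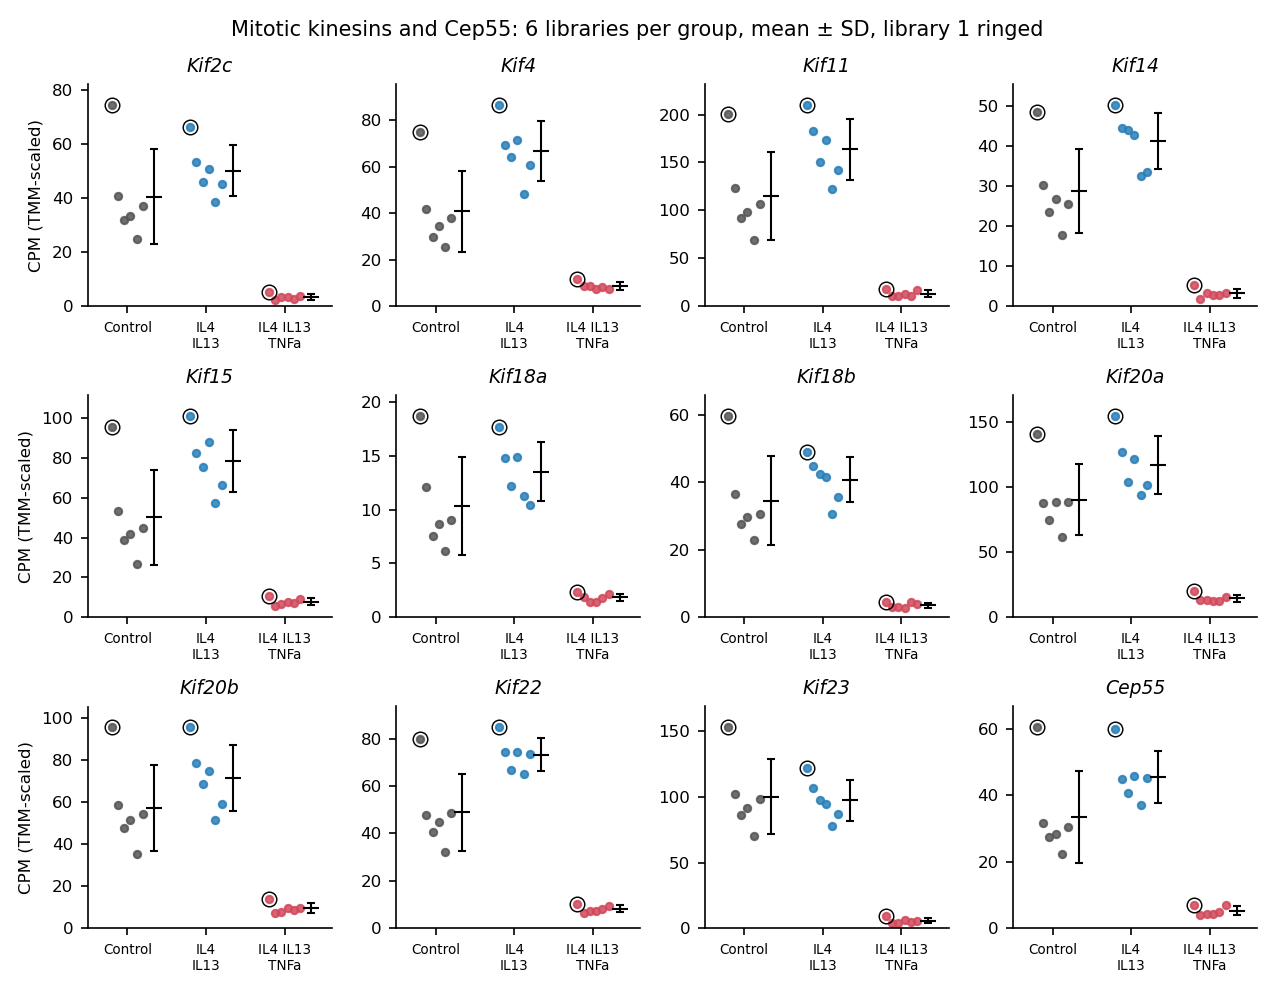
CPM (vertical axis, TMM-scaled, starting at 0) of the 11 mitotic kinesins and Cep55 in each library, with the mean and SD of each group beside the points and library 1 ringed. The IL4_IL13_TNFa libraries of Kif23 lie at 4.27 to 9.24 CPM, below all Control and IL4_IL13 libraries, and the ringed Control library lies above the other Control libraries in every panel.

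IL-4 and IL-13 without TNFa moved the mitotic kinesins less. Of the 11, 5 were higher than in Control, beside 29.3% of all tested genes called higher, and the other 6 fell short of the threshold. The median log2 change was 0.39 and the groups overlapped for all 11. Kif4 rose by 0.71 ± 0.20 (edgeR adjusted p = 0.00647), Kif15 by 0.64 ± 0.23, Kif22 by 0.58 ± 0.16, Kif14 by 0.52 ± 0.21 and Kif11 by 0.51 ± 0.21. This count depended on Control library 1: without it 10 of 11 were higher, with a median of 0.64, and Kif23 alone did not pass. Of all 13344 genes tested without that library, 4741 were higher. With the library number as a block 9 of 11 were higher, beside 4403 of all 13177 genes tested. Kif2c, Kif18a, Kif20a and Kif20b then passed in edgeR (log2 changes of 0.37, 0.44, 0.40 and 0.35). Cep55 differed by 0.45 ± 0.20 (edgeR adjusted p = 0.0644), by 0.71 without Control library 1 and by 0.50 with the block, and passed in both.

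Genes of the G2 and M phases outside the families, also listed with earlier results of these data known, moved beside these kinesins. All 15 on the list fell with TNFa, with a median of -3.29, and their summed level was 932 to 3093 CPM in Control, 1705 to 3034 in IL4_IL13 and 223 to 360 in IL4_IL13_TNFa. All 15 S phase genes fell too, with a median of -1.52, beside 29.3% of all tested genes called lower. With IL-4 and IL-13, 14 of the 15 S phase genes were higher than in Control, with a median of 1.03, beside 29.3% called higher. Their summed level was 2670 CPM in Control library 1, 470 to 865 in the other Control libraries and 1411 to 2670 in IL4_IL13. That count was not repeated without Control library 1.

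Promoters of the members that moved together were read for the cell cycle homology region (CHR), a short element known from promoters of genes expressed in G2 and M phase, and for CCAAT boxes. RefSeq starts of GRCm38.p6 matched 60 of the 74 members, and each promoter spanned 250 bases before to 50 after the start. The CHR letters TTTGAA, on either strand, were present in 9 of 10 mitotic kinesins with a promoter, in Cep55, in 5 of 19 centriole and pericentriolar Cep genes, in 3 of 9 cilium and appendage Cep genes, in 1 of 9 transport kinesins and in 0 of 7 augmin subunits, against 17.9% of all 32851 promoters and 14.5% of the 9759 tested genes with one. The 5 centriole genes were Cep57l1, Cep72, Cep112, Cep170 and Cep295. Allowing TTTAAA as well gave the same 9 of 10 mitotic kinesins and 27.6% of all promoters. Between 100 bases before and 30 after the start, TTTGAA stood in 7 of 10 mitotic kinesins and in 7.15% of all promoters. CCAAT stood in 6 of 10 mitotic kinesins and 37.4% of all promoters, and both elements in 6 of 10 and 6.95%. A match is only a run of letters: binding was not measured.

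The windows from 100 bases before to 30 after the start (GRCm38.p6) are shown 5′ to 3′ for 6 mitotic kinesins with the element near the start, for Cep55, and for Kif18a, the mitotic kinesin without it in the 300 bases; capitals mark TTTGAA or its reverse complement TTCAAA, and CCAAT or its reverse complement ATTGG. The window of Kif23 is chr9:61946770-61946899, minus strand. The window of Kif11 is chr19:37376282-37376411, plus strand. The window of Kif15 is chr9:122950981-122951110, plus strand. The window of Kif18b is chr11:102925095-102925224, minus strand. The window of Kif22 is chr7:127042391-127042520, minus strand. The window of Kif4 is chrX:100625965-100626094, plus strand. The window of Cep55 is chr19:38054884-38055013, plus strand. The window of Kif18a is chr2:109280638-109280767, plus strand.
Kif23: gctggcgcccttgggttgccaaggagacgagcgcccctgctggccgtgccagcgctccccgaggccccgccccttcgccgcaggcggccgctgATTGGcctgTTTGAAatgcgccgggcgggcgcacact
Kif11: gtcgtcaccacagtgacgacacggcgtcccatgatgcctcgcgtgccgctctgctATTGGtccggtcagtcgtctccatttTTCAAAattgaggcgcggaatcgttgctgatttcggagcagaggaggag
Kif15: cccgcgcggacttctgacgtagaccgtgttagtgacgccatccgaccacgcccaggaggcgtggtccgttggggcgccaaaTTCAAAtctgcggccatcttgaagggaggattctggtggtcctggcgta
Kif18b: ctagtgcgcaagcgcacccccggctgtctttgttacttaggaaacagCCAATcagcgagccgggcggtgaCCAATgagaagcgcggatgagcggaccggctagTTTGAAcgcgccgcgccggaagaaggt
Kif22: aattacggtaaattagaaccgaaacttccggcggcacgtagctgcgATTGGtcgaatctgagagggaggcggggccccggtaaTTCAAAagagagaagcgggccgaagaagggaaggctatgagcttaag
Kif4: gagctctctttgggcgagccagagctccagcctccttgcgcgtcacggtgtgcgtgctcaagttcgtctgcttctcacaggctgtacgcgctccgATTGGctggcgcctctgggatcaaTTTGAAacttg
Cep55: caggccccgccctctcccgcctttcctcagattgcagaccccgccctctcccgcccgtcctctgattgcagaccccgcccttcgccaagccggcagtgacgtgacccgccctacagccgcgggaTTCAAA
Kif18a: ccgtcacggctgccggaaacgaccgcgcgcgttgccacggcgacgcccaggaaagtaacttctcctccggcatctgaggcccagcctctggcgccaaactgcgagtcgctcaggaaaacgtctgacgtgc

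In Kif11 the CCAAT box begins 45 bases and the CHR 19 bases before the start; in Kif23 they lie 7 bases before and 2 after it, and Kif18b has a pair of CCAAT boxes 53 and 30 bases before the start and the CHR 3 bases after it. Kif15 and Cep55 have the CHR without a CCAAT box in the 300 bases.

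**Figure D3:**
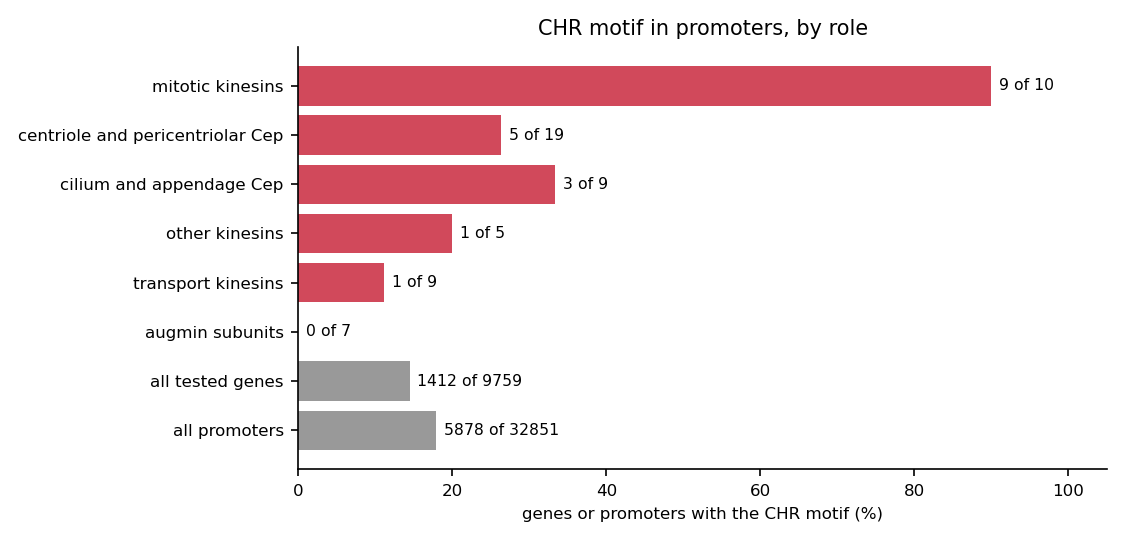
Share of genes with the CHR letters TTTGAA on either strand in the 300-base promoter (horizontal axis, percent), by role, with the counts beside the bars; grey bars give all tested genes with a promoter and all promoters. The bar of the mitotic kinesins stands at 9 of 10 and that of the augmin subunits at 0 of 7.

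Augmin divided into Haus8 and the other 7 subunits. With IL-4 and IL-13, 5 of the 8 were higher than in Control and 3 did not pass (median 0.33), beside 29.3% of all tested genes called higher. With TNFa added, 7 of the 8 were lower, with Haus8 the exception (median -1.05), beside 29.3% called lower. Against Control, IL4_IL13_TNFa had 6 lower, Haus8 higher, and Haus7 at -0.06 ± 0.16. Of all tested genes, 37.3% were called lower and 36.4% higher in that comparison.

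Haus8 encodes the subunit that binds microtubules directly. Its CPM was 43.2, 49.8 and 54.1 in Control, 108, 114 and 124 in IL4_IL13, and 94.0, 104 and 118 in IL4_IL13_TNFa. Both cytokine groups lay above every Control library. The mean went from 49.0 ± 4.03 to 116 ± 5.71 CPM with IL-4 and IL-13, a rise of 1.24 ± 0.06 on the log2 scale or 2.37-fold (edgeR adjusted p = 3.94e-12). With TNFa it stood at 105 ± 8.02 CPM, 1.10 ± 0.06 above Control (edgeR adjusted p = 5.8e-12). The step from IL4_IL13 to IL4_IL13_TNFa was -0.14 ± 0.06 (edgeR adjusted p = 0.0515), lower in 6 of 6 pairs, and it passed with the library number as a block (adjusted p = 0.00567) and without Control library 1 (0.028).

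Haus4, a core subunit, fell most of the 8: its CPM was 14.1, 16.7 and 30.8 in Control, 20.2, 26.6 and 29.6 in IL4_IL13 and 6.76, 9.33 and 11.1 in IL4_IL13_TNFa. Its log2 change was -1.46 ± 0.17 (edgeR adjusted p = 6.9e-07), and the last group lay below both others. Haus1, Haus3 and Haus5 fell by 1.20, 1.17 and 1.13, and Haus6, which joins augmin to the gamma-tubulin complex, by 0.98 ± 0.16. Haus2 fell by 0.42 ± 0.09 and Haus7 by 0.50 ± 0.16; for Haus7 the groups overlapped and 5 of 6 pairs were lower. Of the annotated exon bases of Haus5, 56.5% are shared with Gm21982 on the same strand, so the counting could have split its reads.

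Per length of annotated exon, Haus8 had the highest mean of the subunits in every group, in Control within the spread of Haus4. Its level went from 9.28 ± 0.76 CPM per kb in Control to 22.0 ± 1.1 in IL4_IL13 and 19.9 ± 1.5 in IL4_IL13_TNFa. Haus3, also among the most abundant subunits, went from 7.81 ± 0.70 to 8.81 ± 0.47 and 3.91 ± 0.38 CPM per kb, and Haus4 from 7.82 ± 2.6 to 10.8 ± 1.8 and 3.90 ± 0.63. Haus1, at 1.36 ± 0.36, 1.85 ± 0.33 and 0.81 ± 0.09 CPM per kb, stood lowest in Control together with Haus5 (1.56 ± 0.51), a difference within their spread. That rank rests on the length, which joins all annotated exons (7167 bases for Haus1). By mean CPM in Control, Haus1 (9.72) stood above Haus7 (7.11) and Haus5 (5.40). With IL-4 and IL-13, Haus1, Haus3, Haus4 and Haus7 rose by 0.45, 0.17, 0.46 and 0.44 on the log2 scale, in overlapping groups. Haus6 differed by 0.22 ± 0.15 (edgeR adjusted p = 0.224), by 0.24 with the block (adjusted p = 0.0408) and by 0.40 without Control library 1 (adjusted p = 0.00398), which raised the count of subunits called higher from 5 to 6.

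**Figure D4:**
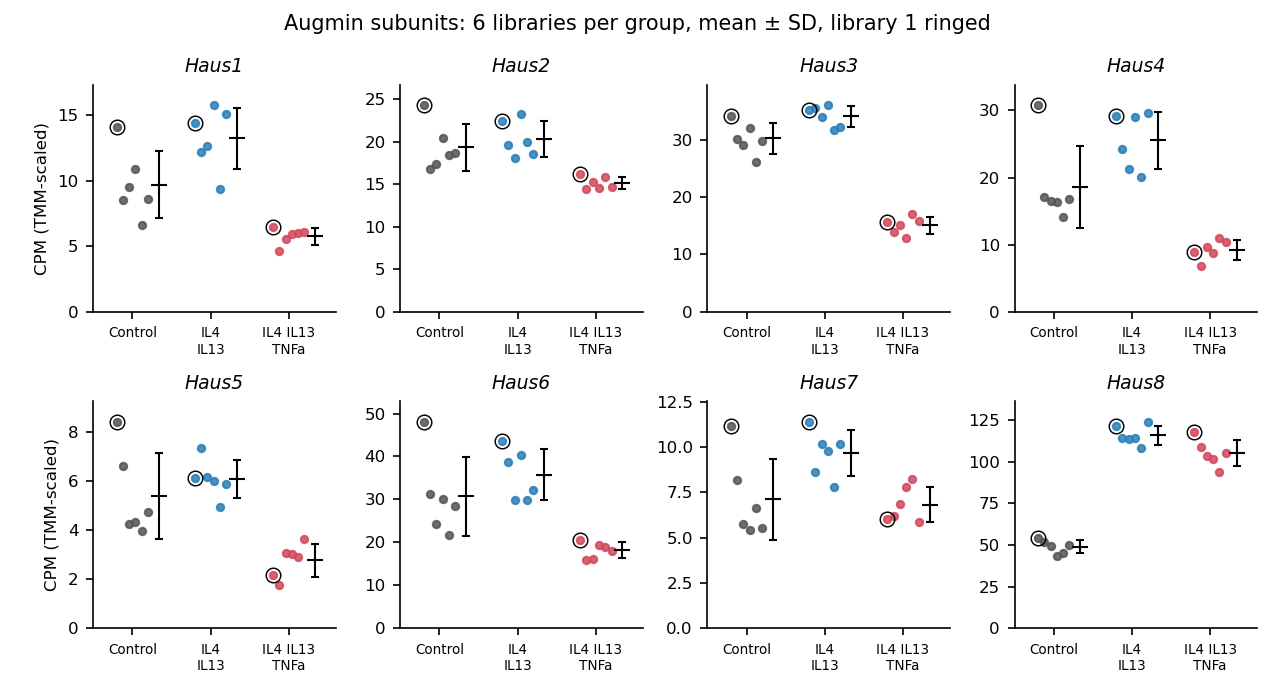
CPM (vertical axis, TMM-scaled, starting at 0) of the 8 augmin subunits in each library, with the mean and SD of each group beside the points and library 1 ringed. Haus8 lies at 43.2 to 54.1 CPM in Control and at 94.0 or above in both cytokine groups, while Haus4 lies lowest in IL4_IL13_TNFa, at 6.76 to 11.1 CPM.

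The transport kinesins moved in both directions, as all tested genes did. Of 13, IL-4 and IL-13 raised 4 and lowered 5, beside 29.3% of all tested genes called higher and 29.7% lower. Both counts were near those shares. Added TNFa raised 6 and lowered 2, beside 30.3% and 29.3%. They include the most abundant members per length, Kif1c at 48.1 CPM per kb over all libraries, Kif5b at 33.1 and Kif3b at 19.0.

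The Kif1 motors carry vesicles towards microtubule plus ends. Kif1c had a lowest, median and highest CPM of 244, 252 and 287 in Control, 307, 313 and 348 in IL4_IL13, and 450, 469 and 500 in IL4_IL13_TNFa. The 3 groups did not overlap. The rise was 0.31 ± 0.05 with IL-4 and IL-13 (edgeR adjusted p = 1.59e-05) and a further 0.57 ± 0.05 with TNFa (2.75e-09). Without overlap, 6 of 6 pairs rose each time. Kif1a, best known from neurons as a synaptic vesicle motor, was at 0, 0.053 and 0.280 CPM in Control, 0.240, 0.760 and 1.05 in IL4_IL13 and 4.88, 5.88 and 7.19 in IL4_IL13_TNFa. Its 6 Control libraries held 11 counts in all, the IL4_IL13 libraries 75 and the IL4_IL13_TNFa libraries 535. The fitted log2 change was 2.77 ± 0.44 and then 3.03 ± 0.28 (edgeR adjusted p = 2.05e-08 for TNFa). Kif1a met the rule through its high groups, so these differences are in part what chose it. Its level per length stayed the lowest of the 3 Kif1 motors (0.64 ± 0.09 CPM per kb in IL4_IL13_TNFa, against 7.79 ± 0.48 for Kif1b and 65.1 ± 2.6 for Kif1c). Kif1b, a motor for mitochondria and vesicle precursors, rose with TNFa by 0.23 ± 0.06, a call that was lost when counts were scaled by library totals alone (log2 change 0.02).

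Kif5 is the heavy chain of conventional kinesin. Kif5b, the broadly expressed form, ran at 184, 205 and 318 CPM in Control, 237, 284 and 330 in IL4_IL13 and 273, 291 and 318 in IL4_IL13_TNFa. It rose by 0.34 ± 0.11 with IL-4 and IL-13 and differed by 0.06 ± 0.11 with TNFa (edgeR adjusted p = 0.649). Its highest Control value was library 1, and the other Control libraries lay at 184 to 222 CPM. The other forms, known mainly from neurons, went opposite ways with TNFa: Kif5a rose by 0.71 ± 0.12, from 6.84 ± 0.93 to 11.2 ± 0.76 CPM, and Kif5c fell by 2.05 ± 0.20, from 6.92 ± 0.74 to 1.66 ± 0.43 CPM (edgeR adjusted p = 3.61e-08). Neither overlapped between those groups. Per length Kif5b stood at 36.6 ± 2.0 CPM per kb in IL4_IL13_TNFa, Kif5a at 1.60 ± 0.11 and Kif5c at 0.233 ± 0.060.

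Kif3a pairs with Kif3b or Kif3c in the heterodimeric motor that carries cargo along cilia and to the cell periphery. Kif3a was at 23.5, 53.9 and 60.3 CPM in Control, 16.9, 21.9 and 24.9 in IL4_IL13 and 9.53, 11.0 and 12.1 in IL4_IL13_TNFa. The lowest Control value was library 1, the only one to overlap IL4_IL13; the other 5 were at 52.9 or above. It fell by 1.25 ± 0.17 with IL-4 and IL-13 (edgeR adjusted p = 5.56e-06) and by a further 0.97 ± 0.18 with TNFa (0.000117). Kif3b fell by 0.14 ± 0.06 with IL-4 and IL-13 and rose by 0.32 ± 0.06 with TNFa, a call lost under scaling by library totals (log2 change 0.11), where its change against Control turned from 0.18 to -0.070. Kif3c fell by 0.89 ± 0.12 and then rose by 0.63 ± 0.13. Per length, Kif3a and Kif3b stood at 14.1 ± 3.8 and 18.8 ± 1.4 CPM per kb in Control, at 5.94 ± 0.93 and 17.0 ± 1.1 in IL4_IL13, and at 3.03 ± 0.25 and 21.3 ± 1.2 in IL4_IL13_TNFa. Of the exon bases of Kif3c 40.7% lie under genes of the other strand.

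A pair of transport kinesins fell with IL-4 and IL-13 and did not pass with TNFa added. Kif13b, which transports phosphoinositide-bearing vesicles, was at 84.1, 118 and 123 CPM in Control, 39.7, 54.4 and 62.7 in IL4_IL13 and 49.1, 57.3 and 62.9 in IL4_IL13_TNFa. It fell by 1.06 ± 0.10 (edgeR adjusted p = 6.43e-08), without overlap, and differed by 0.07 ± 0.10 with TNFa. Kif21b, a processive motor that also slows microtubule growth, fell by 0.73 ± 0.08 from 131 ± 7.67 to 79.2 ± 10.2 CPM and stood at 73.8 ± 5.48 with TNFa.

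Kif16b, a motor of early endosomes, stood low in 1 library of each group. It was at 33.5, 29.0 and 29.4 CPM in the libraries numbered 2 of Control, IL4_IL13 and IL4_IL13_TNFa, and at 47.4 to 68.4 CPM in the other 15; this was looked at after its values were seen. The group differences were -0.13 ± 0.21 with IL-4 and IL-13 and 0.14 ± 0.21 with TNFa. With the library number as a block they were -0.14 ± 0.05 and 0.14 ± 0.05 (edgeR adjusted p = 0.0145 and 0.0183). Kif13a, a motor of recycling endosomes, differed by -0.02 ± 0.07 and 0.04 ± 0.07.

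**Figure D5:**
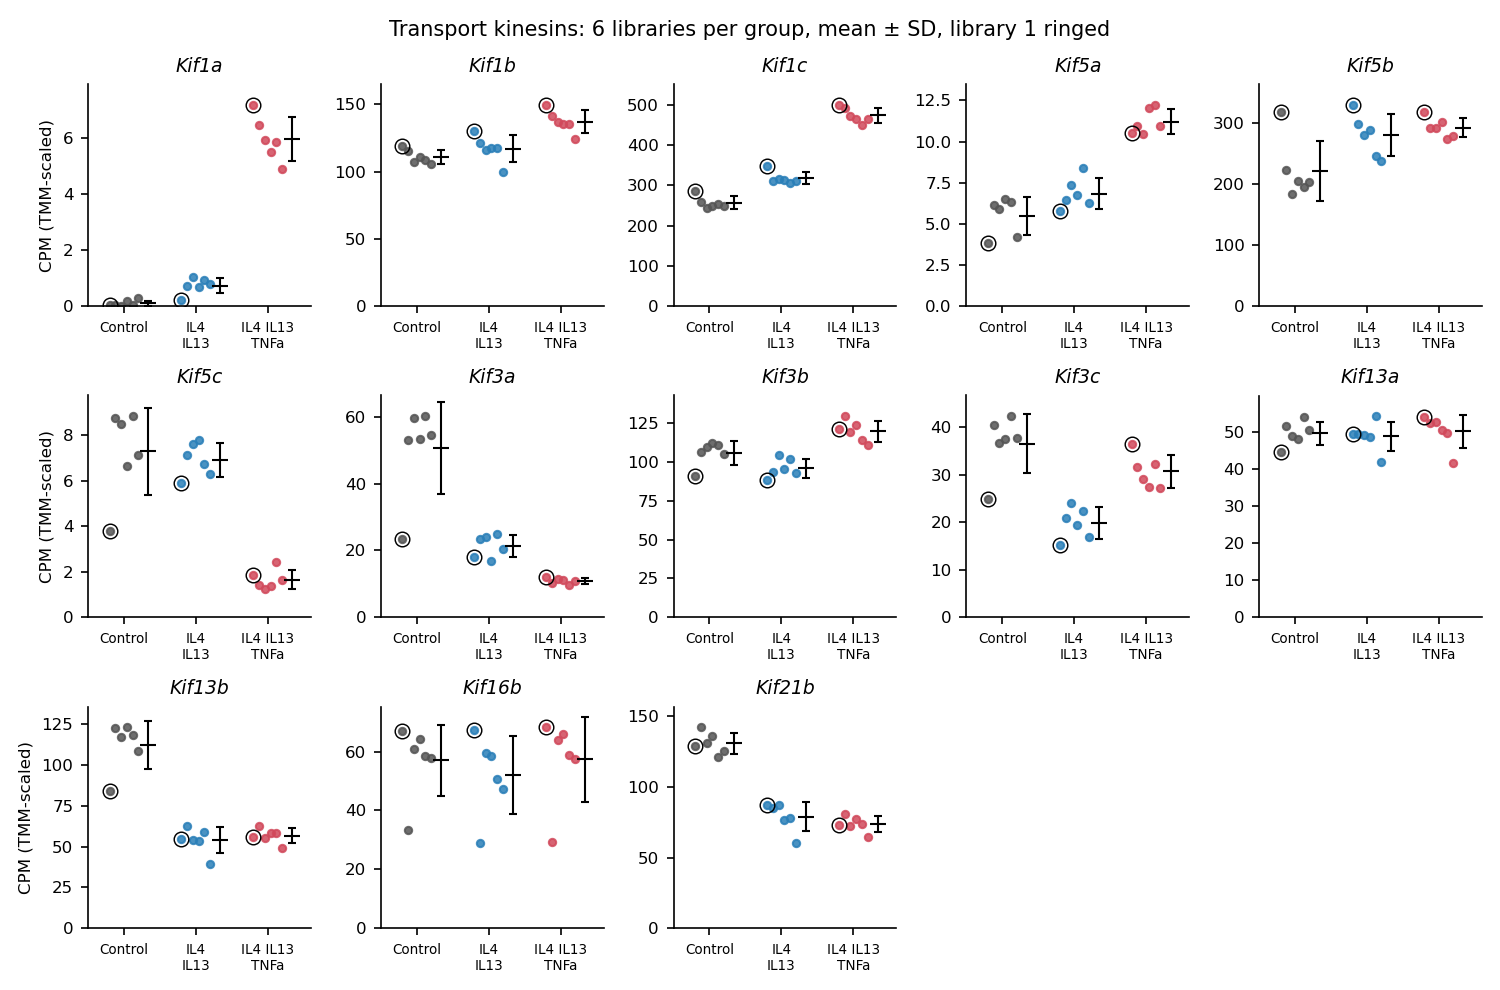
CPM (vertical axis, TMM-scaled, starting at 0) of the 13 transport kinesins in each library, with the mean and SD of each group beside the points and library 1 ringed. Kif1c rises from 244 to 287 CPM in Control to 450 to 500 in IL4_IL13_TNFa, Kif3a falls to 9.53 to 12.1, and 1 library of each group lies low for Kif16b.

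Of the 6 other kinesins, which regulate cilia, tubulin ends or signalling, 4 fell with TNFa, 1 rose and 1 did not pass, beside 29.3% of all tested genes called lower. Kif7, a regulator of Hedgehog signalling at the ciliary tip, was at 8.13, 8.92 and 10.9 CPM in Control, 5.95, 8.34 and 11.5 in IL4_IL13 and 1.11, 1.45 and 1.98 in IL4_IL13_TNFa. It fell by 2.52 ± 0.20 (edgeR adjusted p = 2e-09), with the last group below both others; 20.3% of its exon bases lie under genes of the other strand. Kif19a, which shortens cilia, fell by 0.85 ± 0.19 with IL-4 and IL-13 and by 1.93 ± 0.23 with TNFa, to 0.703 ± 0.174 CPM. Kif24, a centriole-bound depolymerizing kinesin, rose by 0.85 ± 0.24 from 11.9 ± 6.75 to 21.5 ± 4.69 CPM and then fell by 1.66 ± 0.25. Its Control library 1 stood at 25.4 CPM, and the other Control libraries at 7.16 to 11.1. Kif9, a kinesin of motile cilia, fell with TNFa by 1.32 ± 0.22. Kif2a, a depolymerizing relative of Kif2c, rose with TNFa by 0.46 ± 0.08, from 45.7 ± 3.82 to 62.7 ± 4.08 CPM, where Kif2c fell. Kif26b, the member nearest the level, was at 0.838 ± 0.518, 0.618 ± 0.246 and 0.520 ± 0.363 CPM and passed in none of the 3 comparisons, with unadjusted p-values of 0.37, 0.632 and 0.183.

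Among the 24 centriole and pericentriolar Cep genes, added TNFa lowered 16 and raised 2, with a median log2 change of -0.49, beside 29.3% of all tested genes called lower and 30.3% higher. IL-4 and IL-13 lowered 7 and raised 3, with a median of -0.05, beside 29.7% called lower and 29.3% higher, so the lowered share was near that of all genes. The falls were mostly smaller than those of the mitotic kinesins: 5 of the 24 were at least 2-fold lower with TNFa. The share of all tested genes at least 2-fold lower was not counted. Cep72, which helps recruit pericentriolar proteins, fell most. It was at 6.78, 8.71 and 10.6 CPM in Control, 6.67, 8.32 and 10.5 in IL4_IL13 and 0.569, 0.975 and 1.81 in IL4_IL13_TNFa, and fell by 2.97 ± 0.20 with TNFa (edgeR adjusted p = 2.49e-10). Its IL4_IL13_TNFa libraries lay below all others. Cep112, Cep57l1 and Cep295nl fell by 1.48, 1.36 and 1.44, and Cep295nl, at 0.404 to 1.10 CPM in the group means, had first risen by 1.13 ± 0.26 with IL-4 and IL-13. The differences of Cep295nl are in part what chose it. Cep97, a cap of the centriole end that holds back cilium growth, fell in both steps, by 0.53 ± 0.09 and 1.06 ± 0.09.

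Cep192, which recruits the kinases of centriole duplication and spindle assembly, was at 84.9, 94.5 and 135 CPM in Control, 82.1, 110 and 128 in IL4_IL13 and 67.6, 72.1 and 81.2 in IL4_IL13_TNFa. It fell by 0.55 ± 0.11 (edgeR adjusted p = 0.000239), with the IL4_IL13_TNFa libraries below the others. Cep152, which binds the duplication kinase Plk4, fell by 0.63 ± 0.14. Cep250, the linker of the centriole pair and the most abundant Cep gene per length (16.5 CPM per kb), fell by 0.55 ± 0.06, from 190 ± 14.0 to 129 ± 4.68 CPM.

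Some Cep genes went the other way. Cep350, a large centriole and microtubule anchor, fell by 0.39 ± 0.09 with IL-4 and IL-13 and rose by 0.30 ± 0.09 with TNFa, a call lost under scaling by library totals (log2 change 0.10). Cep70, a pericentriolar protein, rose with TNFa by 0.45 ± 0.08, from 16.0 ± 1.51 to 21.9 ± 1.27 CPM, in groups that did not overlap. Cep170b fell with IL-4 and IL-13 by 1.10 ± 0.15, from 44.1 ± 10.6 to 20.5 ± 4.75 CPM, and was at 21.5 ± 1.65 with TNFa, whereas its relative Cep170, a microtubule-binding centrosomal protein, rose by 0.24 ± 0.08. Cep76, which holds back centriole reduplication, rose by 0.63 ± 0.21 with IL-4 and IL-13, and by 0.97 ± 0.11 without Control library 1. It differed by -0.48 ± 0.21 with TNFa (edgeR adjusted p = 0.0632), a difference that passed with the block (0.0135) and without Control library 1 (0.000463).

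Of the 10 Cep genes of the cilium and the centriolar appendages, TNFa lowered 5 and raised 1, with a median log2 change of -0.36, beside 29.3% of all tested genes called lower and 30.3% higher. IL-4 and IL-13 lowered 4 and raised 1, beside 29.7% and 29.3%. Cep131, a protein of the satellites around the centrosome, fell in both steps: its CPM was 22.5, 23.6 and 24.3 in Control, 14.7, 15.4 and 16.4 in IL4_IL13 and 8.08, 9.75 and 11.6 in IL4_IL13_TNFa. The 3 groups did not overlap, with log2 changes of -0.60 ± 0.07 and -0.67 ± 0.07 (edgeR adjusted p = 6.28e-07 and 1.62e-07). Cep89 and Cep83 are distal appendage proteins that dock the centriole to the membrane. Cep89 fell by 0.26 ± 0.09 and then by 1.03 ± 0.09, while Cep83 fell by 0.22 ± 0.08, a call lost without Control library 1 (log2 change -0.15), and differed by -0.03 ± 0.08 with TNFa. Cep128, a subdistal appendage protein, rose by 0.52 ± 0.11 and then fell by 0.97 ± 0.11. Cep290, a gatekeeper of the ciliary base, fell with TNFa by 0.39 ± 0.14, from 15.4 ± 3.44 to 11.8 ± 1.32 CPM in overlapping groups. Cep19, a small protein of the ciliary base, fell with TNFa by 0.34 ± 0.08.

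Without the 11 mitotic kinesins and Cep55, 62 members remained, of which TNFa lowered 35 and raised 10, with a median log2 change of -0.36, beside 29.3% of all tested genes called lower and 30.3% higher. Kif1bp fell by 0.21 ± 0.05 with IL-4 and IL-13 and by 0.14 ± 0.05 with TNFa.

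Partner genes outside the families were counted from lists of textbook roles, chosen with earlier results of these data known. The comparison was TNFa added to IL-4 and IL-13, where 29.3% of all tested genes were called lower and 30.3% higher. All 16 spindle and cytokinesis genes fell with TNFa, with a median log2 change of -3.05; Aspm, a spindle pole protein, fell by 4.35, the mitotic kinase Plk1 fell by 4.05 and the midzone bundler Prc1 fell by 3.55. Of 12 genes of centriole duplication and the pericentriolar material 9 fell and 0 rose; Stil, Plk4 and Sass6, which start a new centriole, fell by 2.60, 1.72 and 1.52. Of 9 tested genes of the gamma-tubulin complex, to which augmin binds, 6 fell and 1 rose. Among 11 tested kinesin light chains, adaptors and kinesins of other names 6 fell and 3 rose. The mitotic kinesins Kifc1 and Cenpe fell by 3.15 and 2.95, as did the near-identical Kifc5b by 2.67, whose reads may be shared with Kifc1. The cargo adaptors Klc1, Klc2 and Trak1 rose by 0.30, 0.81 and 0.45.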

How the data were processed

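Poly(A) RNA of 18 macrophage libraries was sequenced with a strand-marking kit, per the labels' protocols. The authors deposited raw read counts per gene, which were used as they stand; per the submitters' processing notes the tools were FastQC 0.11.5, RSEM 1.3.0, featureCounts 1.5.1, STAR in versions 2.5.2 and 2.5.2b, and bcl2fastq 2.20.0.422, with GRCm38 as the build. What each tool did, the annotation and the strand setting were not given in the sources used here. Symbols, exon lengths and coordinates came from GENCODE on GRCm38 and matched 48434 of 48794 rows; promoters came from RefSeq (GRCm38.p6). The members and gene lists were chosen with earlier results of these data known.

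One edgeR 4.0.16 quasi-likelihood model (R 4.3.3) was fitted to all 18 libraries and 13177 genes that passed filterByExpr (minimum count 10), with TMM scaling and Benjamini-Hochberg adjustment over all genes tested. Members described by value were, in each role, up to 4 with the largest called changes, up to 3 with the highest CPM per kb, those called against the direction of most of their role, all Haus subunits and a fixed set of well-known members; Cep295, Cep162, Kif18a, Kif18b, Kif20b, Kif13a and Kif16b were named after their values were seen. Alternatives were DESeq2 1.42.0, limma voom 3.58.1, DESeq2 size factors, library totals, no filter, a stricter filter (5 CPM in 6 libraries), a replicate block, only the groups compared, and each library left out. The same-numbered libraries of the 3 groups deviated together in 18 of 18 pairs (correlation 0.128 to 0.671), which is where the pairing comes from; no label explains the numbers. All 45 pairs of libraries within a group differed by more than sampling noise (chi-square over its degrees of freedom at least 2.72). Tested on simulated data for IL4_IL13 against Control (11852 genes), the fit recovered 43.3% of 1.5-fold, 83.6% of 2-fold and 98.5% of 4-fold changes. For TNFa against IL4_IL13 (11827 genes), it recovered 68.7% of 1.5-fold, 89.6% of 2-fold and 100% of 4-fold changes. For TNFa against Control (11851 genes), these were 64.2%, 77.6% and 100%. Unchanged genes called numbered 4, 7 and 9 in these 3 comparisons. Only 66 or 67 genes were changed at each fold, and only the groups compared were fitted. The rates may therefore differ for the reported fit, where many more genes were called. The values of 1 member are not reported here.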

Additional observations from a re-analysis of the deposited data

Results flagged for a closer look

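In 24 of 168 groups of 6 libraries, those of 56 named members in 3 groups, 1 library lay far from the other 5 by Dixon's gap test, which chance alone meets in about 1 of 20 groups. Of the 24, 19 were Control library 1. It lay high for Kif2a (57.6 CPM), Kif2c (74.4), Kif4 (74.8), Kif20a (141), Kif22 (79.8), Kif24 (25.4), Kif1c (287) and Kif5b (318). It also lay high for Haus4 (30.8 CPM), Haus6 (48.1), Cep55 (60.6), Cep76 (23.1), Cep83 (52.6), Cep128 (38.7), Cep152 (36.1) and Cep250 (233). It lay low for all 3 Kif3 motors, Kif3a (23.5 CPM), Kif3b (91.1) and Kif3c (24.9). In IL4_IL13_TNFa, library 1 lay high for Kif23 (9.24 CPM) and Kif4 (11.8), and library 6 low for Cep170 (122). In IL4_IL13, library 1 lay high for Kif1c (348 CPM) and library 6 low for Cep350 (105).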

How the results depend on the processing

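With IL4_IL13 against Control, 19 members were higher, and 13 to 30 when 1 library was left out. There were 30 without Control library 1 and 30 without the 3 libraries numbered 1. Over all genes 3865 were higher, 3548 to 4741 when 1 library was left out, and 4652 without those 3. Lower were 18 members, and 10 with no filter on low counts. Over all genes 3909 of 13177 were lower, and 3066 of 31497 with no filter. With the replicate block (the library number as a term) 26 members were higher and 22 lower for IL4_IL13 against Control. For IL4_IL13_TNFa, 12 members were higher and 50 lower against IL4_IL13, and 10 and 53 against Control. Over all 13177 genes the block gave 4403 higher and 4229 lower, then 4338 and 4178, then 5046 and 5139. Without Control library 1, IL4_IL13 against Control had 4741 higher and 4340 lower of 13344 genes. Scaling by library totals moved the median log2 change of all genes to -0.20 for TNFa against IL4_IL13 and -0.27 against Control. For TNFa against IL4_IL13 the calls over all genes then went from 3999 higher and 3857 lower to 2313 and 6089. Against Control they went from 4803 higher and 4919 lower to 3285 and 6773, and members higher from 10 to 6. Directions reversed there for Kif13a (-0.17) against IL4_IL13, and for Kif13a (-0.23), Cep170 (-0.17), Cep63 (-0.23), Cep68 (-0.21) and Kif3b (-0.070) against Control. Calls of Kif1b, Kif3b and Cep350 for TNFa against IL4_IL13 were lost under that scaling. Apart from the scaling itself, the cause was not tested. All 11 mitotic kinesins were lower with TNFa under library totals too. Leaving out 1 library ended some calls near the threshold, among them Kif11, Kif14, Kif15, Haus3, Haus4 and Haus7 for IL-4 and IL-13. Kif1a rests on 11 counts in Control.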
